A study of Mus musculus with 23 samples.

Results

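Loss of the ADP receptor gene P2ry13 was examined in the livers of male mice, by setting 6 arrays titled as male knockout (KO) against 5 arrays titled as male wild type (WT). These are 11 of the 23 arrays of the series, and the other 12 come from female mice, 6 KO and 6 WT. The KO mice carry an ablation of P2ry13, named GPR86 in the sample titles, and the WT mice do not. The labels name no treatment, and they state neither strain, age, litter, the deleted stretch of P2ry13 nor the origin of the WT mice. The design text counts 6 mice in each group and 5 in the male WT group, whose arrays are numbered 2 to 6. Whether KO and WT mice are littermates, and how alike they are at other loci, is likewise unstated.

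The P2Y13 receptor responds to ADP and signals through Gi proteins. In hepatocytes, ADP made by a cell-surface form of the mitochondrial ATP synthase activates the receptor, and signalling through RhoA and the kinase ROCK1 then promotes uptake of high-density lipoprotein particles, a step in the return of cholesterol to the liver. In liver the receptor is also found on macrophages, so whole-liver RNA carries its message from more than a single kind of cell.

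The arrays held 38385 probe sets, of which 24478 carry 1 gene symbol and stand for 19147 symbols. Values below are on the log2 scale of intensity, and a difference is always KO minus WT. An adjusted p is that of limma's moderated test after Benjamini-Hochberg adjustment over all 38385 probe sets, and a gene counts as risen or fallen where it is under 0.05. The male arrays correlated between 0.990 and 0.995, the hepatocyte marker Alb lay between 14.65 and 14.75 on all of them, and 4 probe sets of Y-linked genes read at most 3.69 on female arrays, which serves here as the level of signal without transcript. WT replicate 6 lay with the KO arrays at several genes of chromosome 3. Results are therefore given with all arrays and also without it, a choice made with earlier results of these data known.

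With all arrays, 12 of 38385 probe sets passed, which is 0.0313%, 6 higher and 6 lower in KO (0.0156% each). They stand for 10 named genes and 2 unnamed probe sets. Of the named genes, 9 lie on chromosome 3, the chromosome of P2ry13 itself, and these are 0.976% of the 922 measured genes there, against 0.00556% of the 17989 placed elsewhere. The genes that fell were P2ry13, its neighbours Aadac, Sucnr1 and Mme, and Hsd3b6 farther along the chromosome. The genes that rose were Asic5, B3galnt1, Ppm1l and Jade1 on chromosome 3, and Baz1a, the only called gene placed on another chromosome. Without WT replicate 6, 21 probe sets passed (0.0547%), 11 higher (0.0287%) and 10 lower (0.0261%), for 17 named genes, of which 15 lie on chromosome 3. Of these probe sets 11 had also passed with all arrays, and Baz1a was the gene lost. Analysis of variance probe set by probe set, with no spread shared among them, called 3 probe sets after adjustment (0.00782%), and 582 (1.52%) at the design text's unadjusted p under 0.05 with a change over 20%.

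P2ry13 read 5.17, 5.34, 5.32, 5.07, 5.16 and 5.11 in KO replicates 1 to 6 and 6.34, 5.83, 5.80, 6.09 and 5.92 in WT replicates 2 to 6. All KO arrays lay below all WT arrays, WT replicate 6 included. The means were 5.19 ± 0.11 (SD, n = 6) and 5.99 ± 0.22 (SD, n = 5), a difference of -0.80 with a standard error of 0.09 (limma, adjusted p = 2.12e-05), or 1.74-fold. The KO signal stayed above the floor of 3.69. The labels do not say whether the probes lie in the deleted stretch, so the remaining signal cannot be read as transcript.

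The neighbours of P2ry13 that fell encode a hydrolase, a receptor and a peptidase. Aadac, an endoplasmic reticulum lipase and drug-hydrolysing esterase of hepatocytes, is the protein-coding gene at place 9 after P2ry13. It read 11.43, 11.50, 11.32, 11.56, 11.46 and 11.38 in KO and 12.17, 12.21, 12.26, 12.04 and 12.04 in WT. The groups did not overlap and the spread within each was small, so that Aadac fell by 0.70 with a standard error of 0.07 (limma, adjusted p = 1.81e-06). Sucnr1, the receptor for succinate, follows at place 10 and read 9.05, 8.53, 8.14, 9.07, 8.60 and 8.51 in KO and 10.14, 10.18, 10.20, 9.71 and 9.54 in WT. Its highest KO array stayed below its lowest WT array, which was replicate 6, and it fell by 1.30 with a standard error of 0.20 (limma, adjusted p = 0.00369), 2.47-fold. In a test for a change beyond 20%, which the 5 calls of Sucnr1, Hsd3b6, Jade1, Ppm1l and Baz1a did not pass, Sucnr1 had an adjusted p of 0.0564 (limma), Hsd3b6 0.778 and the others 1.

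Mme, which encodes neprilysin, a membrane peptidase that cleaves small peptides, showed the strongest difference of the comparison. It lies at place 17 and read between 2.79 and 3.52 in KO, at the level of signal without transcript, and 7.17, 7.09, 7.26, 7.03 and 6.68 in WT. The difference of -3.83 (standard error 0.13) passed with an adjusted p of 1.15e-17 (limma), and set against the floor of 3.69 it was at least 10.2-fold lower in KO. The 26 measured of 31 listed genes around P2ry13 did not share this. Aadac, Sucnr1 and Mme fell and none rose, 11 of the 26 read higher in KO, and the median was -0.01, the same as over all named genes. The purine receptors beside P2ry13 did not pass: P2ry12 differed by -0.09, P2ry14 by -0.14 and P2ry1 by 0.23 (limma, adjusted p = 0.944, 0.887 and 0.894). The value of P2ry1, with a standard error of 0.19, was the highest of this list. P2ry12 read 3.96 in WT and 3.87 in KO, close to the floor, which limits its value.

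Among the genes that rose, Asic5, a bile acid-sensitive ion channel of bile duct cells, changed most. It read 8.55, 8.31, 8.13, 8.91, 8.47 and 8.41 in KO and 5.32, 5.30, 5.34, 5.36 and 7.85 in WT. WT replicates 2 to 5 lay between 5.30 and 5.36, and WT replicate 6 lay close to the lowest KO array. The rise was 2.63 with a standard error of 0.34 (limma, adjusted p = 0.000183) with all arrays, and 3.13 with a standard error of 0.23 without WT replicate 6 (limma, adjusted p = 5.06e-09), an 8.76-fold difference. B3galnt1, a glycosyltransferase of globoside synthesis, read 4.12 to 4.51 in KO, while its highest WT value was 3.52, below the floor. It rose by 1.09 (limma, adjusted p = 0.000111), at least 1.5-fold, and WT replicate 6 read 3.39.

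Jade1, a scaffold of histone acetyltransferase complexes, and Ppm1l, a phosphatase of the endoplasmic reticulum and of stress kinase signalling, rose by less. Jade1 read 7.03, 7.10, 6.74, 6.96, 7.04 and 7.03 in KO and 6.13, 6.20, 6.81, 6.48 and 6.54 in WT, so that KO replicate 3 fell within the WT range. The rise of 0.55 (limma, adjusted p = 0.012) did not pass without WT replicate 2 or 3 (limma, adjusted p = 0.0618 and 0.0827), nor in a fit to the male arrays only (limma, adjusted p = 0.25). Ppm1l read 6.52 to 7.02 in KO and 5.89 to 6.51 in WT, and rose by 0.58 (limma, adjusted p = 0.0303). Its call was lost without KO replicate 1, 3 or 4 or WT replicate 2, 3 or 4 (limma, adjusted p = 0.0871, 0.12, 0.0712, 0.128, 0.117 and 0.124) and in the male arrays only (limma, adjusted p = 0.269). The other probe sets of these genes differed: that of Jade1 read -0.06, and those of Ppm1l read 0.27 and -0.03. The 2 unnamed probe sets that passed differed by -3.33 and 1.10 (limma, adjusted p = 8.15e-14 and 0.00467).

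**Figure D1:**
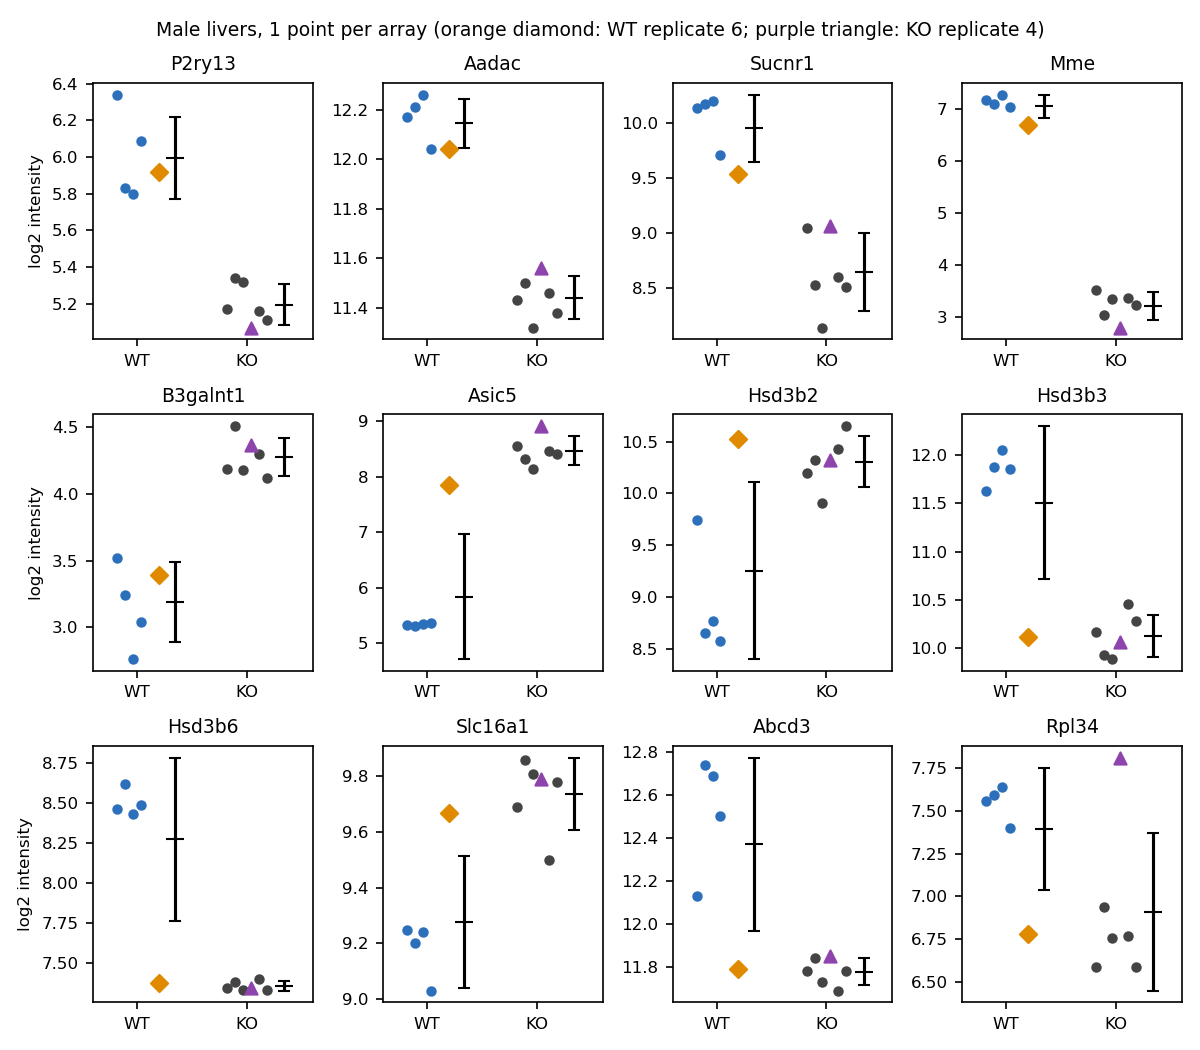
log2 intensity of 12 chromosome 3 genes in each male liver array, WT at the left and KO at the right of each panel, with the mean and SD of each group beside the points. WT replicate 6 (orange diamond) lies with the other WT arrays at P2ry13, Aadac, Mme and B3galnt1 and with the KO arrays at Hsd3b2, Hsd3b3, Hsd3b6, Slc16a1, Abcd3 and Rpl34, while KO replicate 4 (purple triangle) reads 7.81 at Rpl34, above the WT arrays.

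The 3-beta-hydroxysteroid dehydrogenase genes, whose enzymes act on the A ring of steroids, form a cluster on chromosome 3, where Hsd3b5 has place 424 from P2ry13. Of the 12 measured genes of this cluster list, Hsd3b6 alone passed with all arrays, and 3 of 12 read higher in KO with a median of -0.08. On every male array 4 of the 12 read at or below the level of signal without transcript, which limits this count and median. Without WT replicate 6, Hsd3b2 rose and Hsd3b3 and Hsd3b6 fell. The sequences around the starts of these 3 genes are shown because neighbouring copies of the family moved in opposite directions. They are the RefSeq windows of GRCm38.p6, 250 bases before to 50 after the start, on the minus strand, at chr3:98724494-98724793 for Hsd3b2, chr3:98763079-98763378 for the first of 2 listed starts of Hsd3b3, and chr3:98814394-98814693 for Hsd3b6.
Hsd3b2: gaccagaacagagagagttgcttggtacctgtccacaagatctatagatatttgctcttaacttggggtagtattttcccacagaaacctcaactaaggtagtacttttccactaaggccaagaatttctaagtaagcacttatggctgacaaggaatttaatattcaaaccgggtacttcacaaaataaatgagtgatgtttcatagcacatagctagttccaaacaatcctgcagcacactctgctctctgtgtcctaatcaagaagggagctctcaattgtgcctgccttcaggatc
Hsd3b3: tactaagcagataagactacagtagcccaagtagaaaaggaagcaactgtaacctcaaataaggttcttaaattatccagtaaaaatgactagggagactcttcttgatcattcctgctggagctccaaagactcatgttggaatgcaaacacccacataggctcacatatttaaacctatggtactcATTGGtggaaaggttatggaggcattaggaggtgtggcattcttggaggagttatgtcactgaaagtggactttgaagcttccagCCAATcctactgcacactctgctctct
Hsd3b6: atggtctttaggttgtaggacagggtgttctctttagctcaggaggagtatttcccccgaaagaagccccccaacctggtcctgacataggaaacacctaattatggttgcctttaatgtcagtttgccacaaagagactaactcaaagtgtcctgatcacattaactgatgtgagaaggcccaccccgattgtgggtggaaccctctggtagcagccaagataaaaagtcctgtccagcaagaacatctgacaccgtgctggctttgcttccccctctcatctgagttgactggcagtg
Capitals mark matches, on either strand, to the letters CCAAT of the CCAAT box, of which the Hsd3b3 window holds 2 and the others 0. Its ATTGG match lies before the start, and its CCAAT match lies in the last 50 bases, after the start. None of the 3 windows holds TATAAA, the TATA box, or TTCNNNGAA, a STAT motif. Of 32851 mouse windows of this length, 37.4% hold CCAAT, 13.6% TATAAA and 8.3% TTCNNNGAA.

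Hsd3b6 read 7.34, 7.38, 7.33, 7.34, 7.40 and 7.33 in KO and 8.46, 8.62, 8.43, 8.49 and 7.37 in WT. WT replicate 6 therefore lay within the narrow KO range and the other 4 WT arrays above it. With all arrays it fell by 0.92 (limma, adjusted p = 0.0192), a call lost without any of KO replicates 1 and 3 and WT replicates 2 to 5 (limma, adjusted p = 0.0563, 0.0563, 0.0824, 0.119, 0.106 and 0.121) and in the male arrays only (limma, adjusted p = 0.134). Without WT replicate 6 it fell by 1.15 with a standard error of 0.12 (limma, adjusted p = 4.62e-06).

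Hsd3b3 read 9.88 to 10.45 in KO and 11.63, 11.88, 12.06, 11.86 and 10.11 in WT. Again only WT replicate 6 lay among the KO arrays. The difference was -1.38 with all arrays (limma, adjusted p = 0.0776) and -1.73, or 3.33-fold, without that array (standard error 0.23, limma, adjusted p = 0.000184). Hsd3b2 ran the other way, at 9.91 to 10.65 in KO and 9.74, 8.65, 8.77, 8.58 and 10.53 in WT. It differed by 1.05 with all arrays (limma, adjusted p = 0.305) and rose by 1.37 without WT replicate 6 (standard error 0.22, limma, adjusted p = 0.0035). Another probe set of Hsd3b2, at 2.66 in WT, lay at background. These genes are near-identical copies, and how far a probe set of each reads its relatives was not tested.

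The male-typical member Hsd3b5 differed by -0.48 (standard error 0.32, limma, adjusted p = 0.864), Hsd3b4 by -0.25 (adjusted p = 0.828), and Hsd3b7, which acts in bile acid synthesis and lies on another chromosome, by 0.01 (adjusted p = 0.988).

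The other chromosome 3 genes that passed without WT replicate 6 encode a pair of transporters, a mitochondrial ribosomal protein and the enzyme nocturnin. Abcd3, a peroxisomal importer of fatty acyl chains, read 11.69 to 11.85 in KO and 12.13, 12.74, 12.69, 12.50 and 11.79 in WT. It differed by -0.59 with all arrays (limma, adjusted p = 0.0776) and fell by 0.74 without WT replicate 6 (standard error 0.10, limma, adjusted p = 0.000229). Slc16a1, which encodes the lactate and ketone body carrier MCT1, read 9.50 to 9.86 in KO, 9.03 to 9.25 in WT replicates 2 to 5 and 9.67 in replicate 6, and rose by 0.56 without the latter (limma, adjusted p = 0.00714), against 0.46 with it (adjusted p = 0.145). Mrpl9, of the mitochondrial ribosome, fell by 0.49 without WT replicate 6 (limma, adjusted p = 0.0298), against -0.38 with it (adjusted p = 0.443).

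Noct, the rhythmic enzyme nocturnin, which removes a phosphate from NADP cofactors, was more scattered. It read 5.22, 6.79, 6.28, 6.66, 5.77 and 7.05 in KO and 3.49, 4.82, 4.03, 4.39 and 5.48 in WT, and only KO replicate 1 reached into the WT range. The difference of 1.85 (limma, adjusted p = 0.143) became 2.11 without WT replicate 6 (standard error 0.41, adjusted p = 0.0371). The labels do not state the time of day of collection.

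The place of WT replicate 6 between the groups varied along the chromosome. At the called genes from 57 places before P2ry13 to 56 after it, this array had covered 11.9% of the distance from the other WT mean to the KO mean for P2ry13, 18.1% for Aadac, 11.7% for Mme, 23.2% for Jade1 and 22.2% for B3galnt1. All WT readings of B3galnt1 lay below the floor, so its share rests on differences between background readings. Sucnr1 (36.6%), Ppm1l (55.9%) and Noct (61.4%) lay between. At the called genes from Asic5 at place 86 to Abcd3 at place 602 the share was 80.4% for Asic5, 119% for Mrpl9, 117% for Hsd3b2, 101% for Hsd3b3, 98.4% for Hsd3b6, 87.5% for Slc16a1 and 98.7% for Abcd3. These shares describe genes chosen partly by their difference from the same 4 WT arrays, most of the latter called only without WT replicate 6. Genes of the same stretch that were not called did not all read this way. Against the mean of WT replicates 2 to 5, Hsd3b5 read -0.54 in KO and -0.29 in WT replicate 6, Gatb -0.29 and -0.14, and Prok1 -0.30 and 0.13. Others there read alike, such as Snx27 (0.50 and 0.43), Ap4b1 (-0.38 and -0.35) and S1pr1 (-0.30 and -0.31), named after their values were seen. Past that stretch, Tifa, a signalling adaptor also named after its values were seen, read -0.97 and -0.35. Over 377 plotted chromosome 3 genes, the KO mean differed from that WT mean by over 0.5 at 20. WT replicate 6 did so at 14, of which 12 were shared with KO at the same sign. Both differences are taken from the same 4 WT arrays. Over probe sets that reach 6 on a male array, WT replicate 6 differed by more than 0.5 from the mean of its group's other arrays at 3.68% of those on chromosome 3 and 2.06% of those elsewhere. KO replicate 4 did so at 3.68% and 2.32%, so that such an excess on chromosome 3 was not seen on WT replicate 6 alone. WT replicate 3 did so at 3.03% and 1.97%, though the mean it was set against includes WT replicate 6. KO replicate 5, at 3.68% and 4.19%, and WT replicate 2, at 4.76% and 5.14%, showed no such excess.

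**Figure D2:**
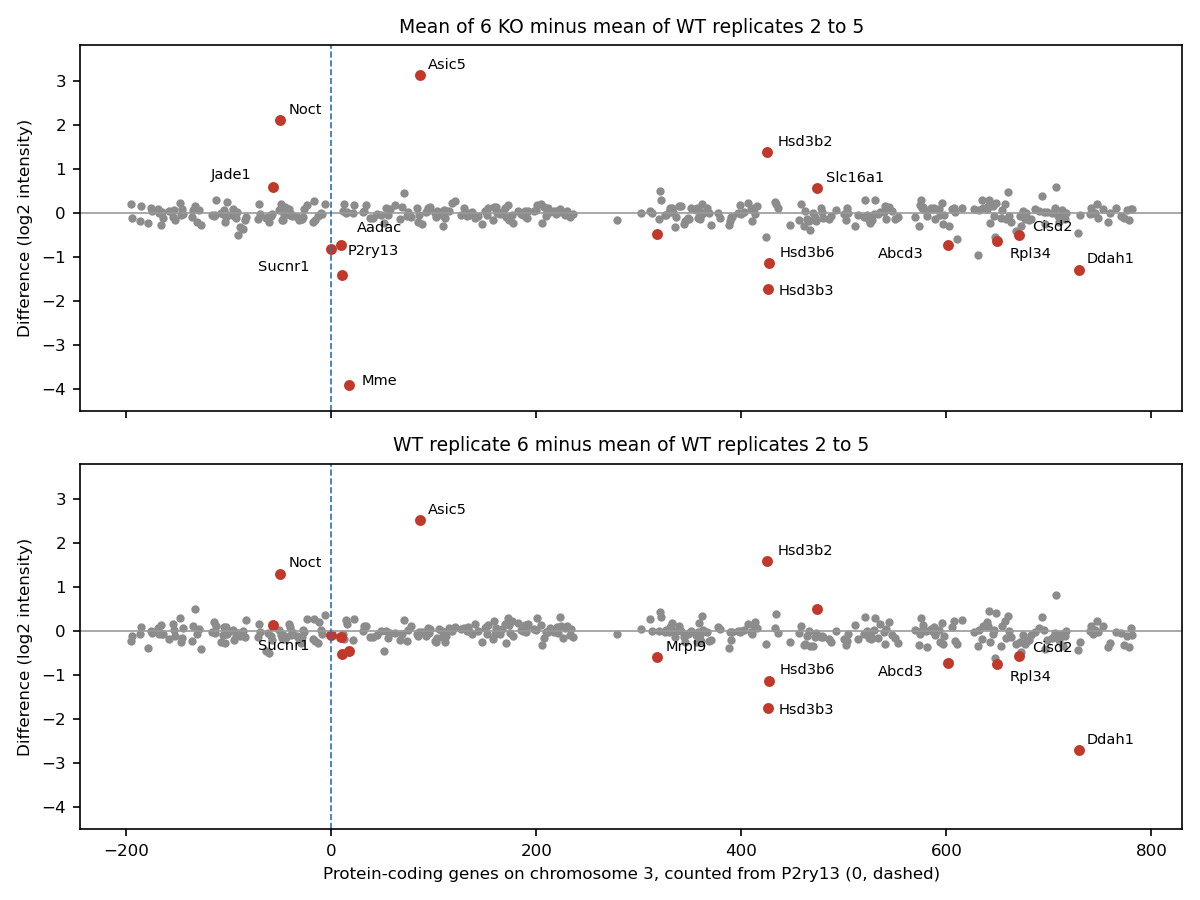
Difference in log2 intensity from the mean of male WT replicates 2 to 5 for 377 chromosome 3 genes that reach 6 on a male array, against their order from P2ry13 (0, dashed), with the KO mean above and WT replicate 6 below. Red points are some of the genes named in the text, labelled where the difference is at least 0.5, and other named genes are grey. WT replicate 6 lies near the KO mean at Asic5, Hsd3b2, Hsd3b3, Hsd3b6 and Abcd3, and at Mme it reads -0.46 against -3.92 in KO. Both panels share the same 4 WT arrays.

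Farther along, KO replicate 4 stood apart from its own group. Rpl34, a protein of the large ribosomal subunit, read 6.59, 6.94, 6.76, 7.81, 6.77 and 6.59 in KO and 7.56, 7.59, 7.64, 7.40 and 6.78 in WT. KO replicate 4 thus read like most WT arrays and WT replicate 6 like most KO arrays. Cisd2, an iron-sulfur protein of the endoplasmic reticulum and mitochondria, read 8.71 in KO replicate 4 against 8.24 to 8.45 in the other KO arrays, and 8.36 in WT replicate 6 against 8.87 to 8.98 in the other WT arrays. Etnppl, a phospholyase of ethanolamine metabolism, read 11.02 in KO replicate 4, 10.28 to 10.79 in the other KO arrays, 10.55 in WT replicate 6 and 10.89 to 11.31 in the other WT arrays.

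With all arrays none of these genes passed: Rpl34 differed by -0.48, Cisd2 by -0.40 and Etnppl by -0.42 (limma, adjusted p = 0.719, 0.465 and 0.719). With both arrays left out, a setting chosen after the data were seen, 28 probe sets passed, 11 higher and 17 lower, and Rpl34 and Cisd2 differed by -0.82 and -0.57 (limma, adjusted p = 0.0151 for each). Arrays were left out here because of their values, so these calls describe the remaining 9 male arrays.

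Baz1a, the large subunit of the ACF and CHRAC nucleosome-spacing complexes, lies on chromosome 12. It read 6.59, 6.60, 6.51, 6.46, 6.44 and 6.86 in KO and 5.77, 6.28, 5.81, 5.85 and 6.01 in WT, with no overlap between the groups. It rose by 0.63 with a standard error of 0.12 (limma, adjusted p = 0.0395). The call was lost without KO replicate 1, 2, 3 or 6 or WT replicate 2, 4, 5 or 6 (limma, adjusted p between 0.0523 and 0.192) with equal array medians (adjusted p = 0.0639), with the replicate number as a block (0.0832), for a change beyond 20% (1) and in the plain analysis of variance (0.598). Of the 15 genes listed for the complexes around Baz1a and Jade1, 12 read higher in KO with a median of 0.08, where 47.1% of all named genes read higher. The list was built around Baz1a and Jade1, and both are among the 12, so the count is no separate support for them. In females 7 read higher and 8 lower, with a median of -0.01. In males Ing5 (0.14, its other probe set -0.08) and Jade2 (0.16) were the next by p (limma, adjusted p = 0.805 and 0.812).

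Outside chromosome 3, leaving out WT replicate 6 added Cbx7, a Polycomb chromobox protein, and Obp2a, a lipocalin. Cbx7 fell by 0.37 (limma, adjusted p = 0.0303; -0.32 and 0.204 with all arrays). Obp2a read 6.98, 5.90, 7.79, 8.32, 7.67 and 7.13 in KO and 6.59, 5.33, 5.01, 5.15 and 7.68 in WT. The groups overlapped, also without WT replicate 6, since WT replicate 2 lay above KO replicate 2. Obp2a differed by 1.35 with all arrays (limma, adjusted p = 0.406) and rose by 1.78 without WT replicate 6 (standard error 0.30, adjusted p = 0.00799).

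The male groups did not overlap at 213 probe sets, 0.555% of all, with 96 higher (0.25%) and 117 lower (0.305%) in KO. Of these 10 had passed and 203 had not. By gene, the called ones included, the groups did not overlap for 18 of 922 on chromosome 3 (1.95%) and 116 of 17989 elsewhere (0.645%). Among those that did not pass, Mccc1, a subunit of the methylcrotonoyl-CoA carboxylase of leucine breakdown, read 8.51 to 9.01 in KO and 9.12 to 9.38 in WT, a difference of -0.49 (standard error 0.10, limma, adjusted p = 0.0776). It passed without KO replicate 4 (-0.54, limma, adjusted p = 0.0174). Acad9, an assembly factor of respiratory complex I, lies close to it and differed by -0.38 (limma, adjusted p = 0.204), and Anxa5, a phospholipid-binding annexin in the same stretch, by -0.37 (adjusted p = 0.338). Mccc2, the partner subunit of Mccc1, differed by -0.12 (adjusted p = 0.819). Other chromosome 3 genes of this kind were the zinc transporter Slc30a7 (-0.41, adjusted p = 0.633, while its other probe sets read 0.23 and 0.38), Prok1 (-0.33, adjusted p = 0.291) and the mitochondrial amidotransferase subunit Gatb (-0.26, adjusted p = 0.406).

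Away from chromosome 3, the secreted and inflammatory genes Fgl1, Bcl3 and Il13ra1 were among those with the highest values. Fgl1, a hepatocyte-secreted protein of the fibrinogen family, read 11.31, 11.37, 12.10, 10.37, 10.60 and 11.05 in KO and 9.97, 10.35, 10.33, 10.36 and 10.31 in WT. KO replicate 4 lay just above the highest WT array and KO replicate 3 far above it. The difference was 0.87 with a standard error of 0.19 (limma, adjusted p = 0.143), and it passed without KO replicate 4 (1.02, adjusted p = 0.00897) or KO replicate 5 (0.98, adjusted p = 0.0406). Bcl3, a coactivator of NF-kappaB, read 7.66, 7.74, 8.31, 7.56, 7.30 and 7.49 in KO and at most 7.26 in WT, a difference of 0.54 (limma, adjusted p = 0.452). Il13ra1, an interleukin receptor chain, differed by 0.46 (adjusted p = 0.465) and was also highest in KO replicate 3.

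The transporters Slc41a2 (0.75, adjusted p = 0.434) and Slc10a2, the bile acid carrier of ileum and bile ducts (0.58, adjusted p = 0.493), the electron carrier Cyb561 (0.62, adjusted p = 0.225), the cytoskeletal scaffold Iqgap1 (0.36, adjusted p = 0.221) and the peptide-loading factor Tapbp (0.36, adjusted p = 0.205) had the same pattern of groups without overlap. Lower in every KO array were the glucuronosyltransferase Ugt2b1 (-0.33, adjusted p = 0.534), the growth factor binding protein Igfbp3 (-0.39, adjusted p = 0.688) and Klhl11 (-0.28, adjusted p = 0.209), all by limma.

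Acute phase genes, liver proteins and regulators of the response to inflammation, read higher in male KO livers. Of 34 listed genes 31 were measured and 30 of these were higher in KO, with a median of 0.17, against 47.1% of all named genes higher, 52.9% lower and a median of -0.01. At an unadjusted p under 0.05 there were 10, all higher, where 2.86% of all named genes were, and none passed over all probe sets. The median over the list, relative to the WT mean, was 0.27, 0.15, 0.59, 0.01, 0.04 and 0.10 in KO replicates 1 to 6 and between -0.05 and 0.03 in the WT arrays. KO replicate 3 was thus far above the rest, and KO replicate 4 lay within the WT range. Without KO replicate 3 the median was 0.14. On KO replicate 3 the median of the Kupffer cell markers was -0.08, and its part in the acute phase values was not tested.

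Saa2, a serum amyloid protein, read 7.41, 6.55, 9.25, 5.69, 6.62 and 6.60 in KO and 6.26, 5.55, 5.62, 5.31 and 5.54 in WT, a difference of 1.36 (standard error 0.36, limma, adjusted p = 0.406). Lrg1, a secreted leucine-rich glycoprotein, read 11.92 to 13.33 in KO, highest in replicate 3, and 11.85 to 12.06 in WT, a difference of 0.56 (limma, adjusted p = 0.524). The inter-alpha-trypsin inhibitor chains Itih4 and Itih3 differed by 0.35 and 0.30 (limma, adjusted p = 0.158 and 0.424), and Itih4 passed without KO replicate 5 (0.39, adjusted p = 0.0406). In females 16 of the 31 genes read higher, with a median of 0.00, and the difference between the sexes for the list was not tested.

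Complement and coagulation proteins had a median of 0.04, with 17 of 27 genes higher. C4b read 9.31 to 9.68 in KO and 8.98 to 9.27 in WT, a difference of 0.31 (limma, adjusted p = 0.494), and Hc, complement component 5, differed by 0.25 (adjusted p = 0.597).

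**Figure D3:**
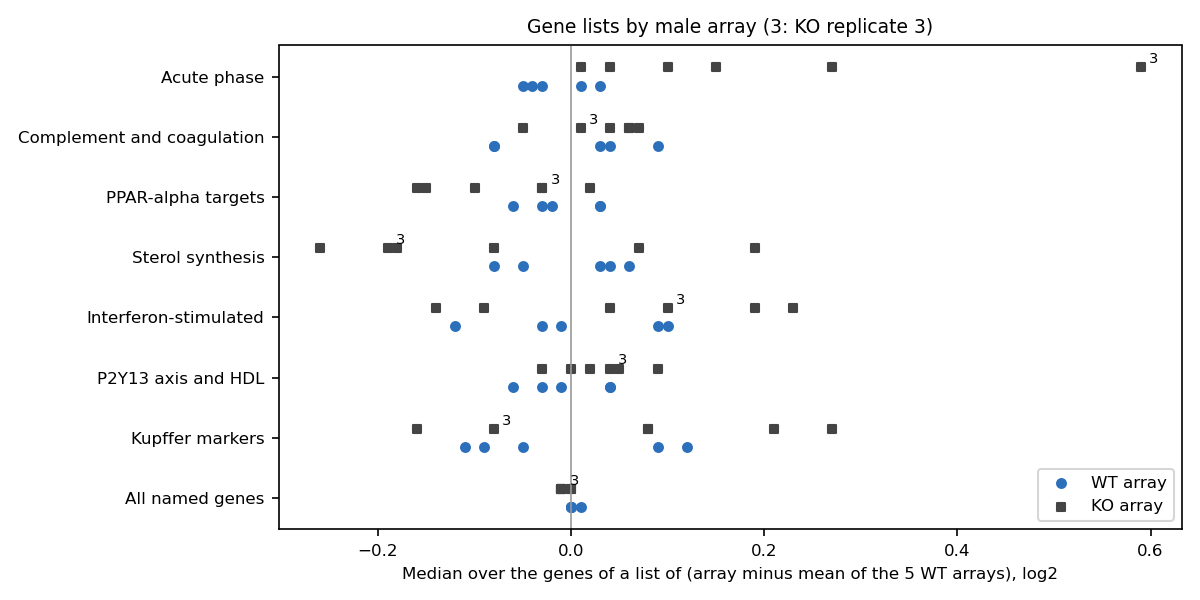
Median, over the genes of each list, of the log2 difference between a male array and the mean of the 5 WT arrays; squares are KO arrays, circles WT arrays, and 3 marks KO replicate 3. In the acute phase list KO replicate 3 lies at 0.59 and the WT arrays between -0.05 and 0.03, while all named genes lie close to 0 on every array.

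Of the fatty acid oxidation genes regulated by PPAR-alpha, 21 of 26 measured read lower in KO, with a median of -0.05. The 5 at an unadjusted p under 0.05 were all lower, where 3.15% of all named genes were, and none passed. Fabp2, a fatty acid carrier whose gene lies at place 610 on chromosome 3, read 9.69, 9.52, 9.66, 10.07, 9.81 and 9.36 in KO and 10.16, 10.44, 10.43 and 10.11 in WT replicates 2 to 5, a difference over all arrays of -0.54 (standard error 0.13, limma, adjusted p = 0.225). KO replicate 4 alone reached into the WT range, above WT replicate 6. Acot1, an acyl-CoA thioesterase, differed by -0.52 and Ehhadh, the peroxisomal bifunctional enzyme, by -0.31 (limma, adjusted p = 0.719 and 0.687).

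The receptor's own axis, from ectonucleotidases and Gi subunits to RhoA, ROCK1 and lipoprotein genes, had 22 measured of 26 listed genes. Rock2, Apoa1, Lipc and the ATP synthase subunit gene Atp5b were listed but not measured. Of the 22 measured genes 12 read higher, the median was 0.01 and none passed, where 0.0313% of all probe sets did. Nt5e, which turns AMP into adenosine at the cell surface, read 6.12 to 6.71 in KO and 6.65 to 7.16 in WT, a difference of -0.51 (standard error 0.12, limma, adjusted p = 0.291). The UDP receptor P2ry6 differed by 0.26 and the G protein subunit Gnai1 by -0.23 (limma, adjusted p = 0.739 and 0.808).

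Sterol synthesis genes read lower in 14 of 20, with a median of -0.08, and in females 18 of 20 read higher, with a median of 0.22, a difference between the sexes that was not tested. In males none had an unadjusted p under 0.05, where 2.86% of all named genes were higher and 3.15% lower at that level. Lss, lanosterol synthase, differed by -0.26 and Fdps, farnesyl diphosphate synthase, by -0.21 (limma, adjusted p = 0.819 and 0.847). Bile acid genes had 9 of 25 higher and a median of -0.02. Cyp7a1, the rate-limiting enzyme of bile acid synthesis, read 7.16 to 8.59 in KO and 8.15 to 9.49 in WT, a difference of -0.75 with a standard error of 0.34 (limma, adjusted p = 0.794). The receptor Fgfr4, which carries the signal of FGF19 family hormones that restrain Cyp7a1, differed by 0.26 (adjusted p = 0.724).

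No member passed in 8 further lists of liver function. Over all probe sets only 0.0313% passed, so this absence says little about lists of this size. The medians of these lists lay near 0. They were 0.00 for interferon-stimulated genes, 0.05 for lipid synthesis, 0.03 for glucose metabolism, 0.01 for drug-metabolising enzymes, 0.02 for the clock, 0.06 for the unfolded protein response, 0.03 for the cell cycle and 0.01 for zonation. Without WT replicate 6, 11 of the 16 genes of the unfolded protein list read higher, with a median of 0.09. At an unadjusted p under 0.05 (limma) 5 of them were then higher and 1 lower, where 623 of all 19147 named genes were higher. WT replicate 6 had itself the highest median of the male arrays on this list, 0.18. In the same list Asns, asparagine synthetase, read 5.05 to 6.10 in KO and 5.31, 6.59, 6.76, 7.41 and 7.50 in WT. WT replicate 2 alone lay among the KO arrays. The difference of -1.06 (standard error 0.25, limma, adjusted p = 0.278) was -1.41 without that array (limma, adjusted p = 0.000431). WT replicate 2 was left out here because of its Asns value, which by itself widens the difference. The second value therefore describes the remaining arrays only.

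No marker of a liver cell type passed, where 0.0313% of all probe sets did. The Kupffer cell and macrophage list had 9 of 14 genes higher and a median of 0.06, and its summed level, the log2 of the summed intensities, lay between 12.17 and 12.62 in KO and 12.16 and 12.59 in WT. Tlr2, a receptor for bacterial lipoproteins, read 5.39 to 5.62 in KO and 4.47 to 5.37 in WT (0.49, limma, adjusted p = 0.279), and the macrophage protein Cd5l differed by 0.24 (adjusted p = 0.741). Both are named as the members with the smallest p. The 5 genes of this list that read lower were Clec4f (-0.11), Timd4 (-0.05), Csf1r (-0.05), C1qc (-0.04) and Adgre1 (-0.02). Summed levels of hepatocyte markers lay between 16.55 and 16.67 in KO and 16.58 and 16.64 in WT, and those of sinusoidal endothelial markers between 11.83 and 11.96 and between 11.79 and 12.02. For every gene above, fewer cells of a type and less RNA per cell cannot be told apart in whole liver.

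In females, 6 KO against 6 WT arrays, 21 probe sets passed (0.0547%). Of the 10 genes called in males with all arrays, 8 were also called in females, among them Mme (-3.83 in males and -3.93 in females), Aadac (-0.70 and -0.62), Sucnr1 (-1.30 and -1.05), Asic5 (2.63 and 1.97), B3galnt1 (1.09 and 1.48) and Jade1 (0.55 and 0.84). Of the same 10 genes, Hsd3b6 (-0.92 in males and -0.58 in females) and Baz1a (0.63 and -0.16) were called in males alone. The difference of the effects did not pass for either (limma, adjusted p = 0.98 and 0.26). Of the 18 named genes called in males with all arrays or without WT replicate 6, only 9 were also called in females.

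The difference between the male and the female effect passed at 4 probe sets (0.0104%), and in males none of the 4 genes passed. Hsd3b5, the male-typical steroid dehydrogenase, read 11.55 to 12.44 in male KO and 12.27 to 12.75 in male WT, and differed by -0.48 in males and -3.73 in females (difference 3.25, limma, adjusted p = 0.00116). The female-typical sulfotransferases Sult2a1 and Sult2a2 and the hydroxyacid oxidase Hao2 read at most 3.25 on every male array, which is at the level of signal without transcript. Their effects were -0.06, 0.09 and -0.08 in males and 3.44, 5.00 and 2.64 in females (difference limma, adjusted p = 6.27e-05, 6.27e-05 and 0.0131). Each of these 4 differences also passed without WT replicate 6. Over the lists of sex-biased liver genes, the male medians were -0.04 for 18 male-biased and -0.05 for 20 female-biased genes, against -0.24 and 0.46 in females. Of the 20 female-biased genes, 7 read at or below the level of signal without transcript on every male array, which limits their male values.

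**Figure D4:**
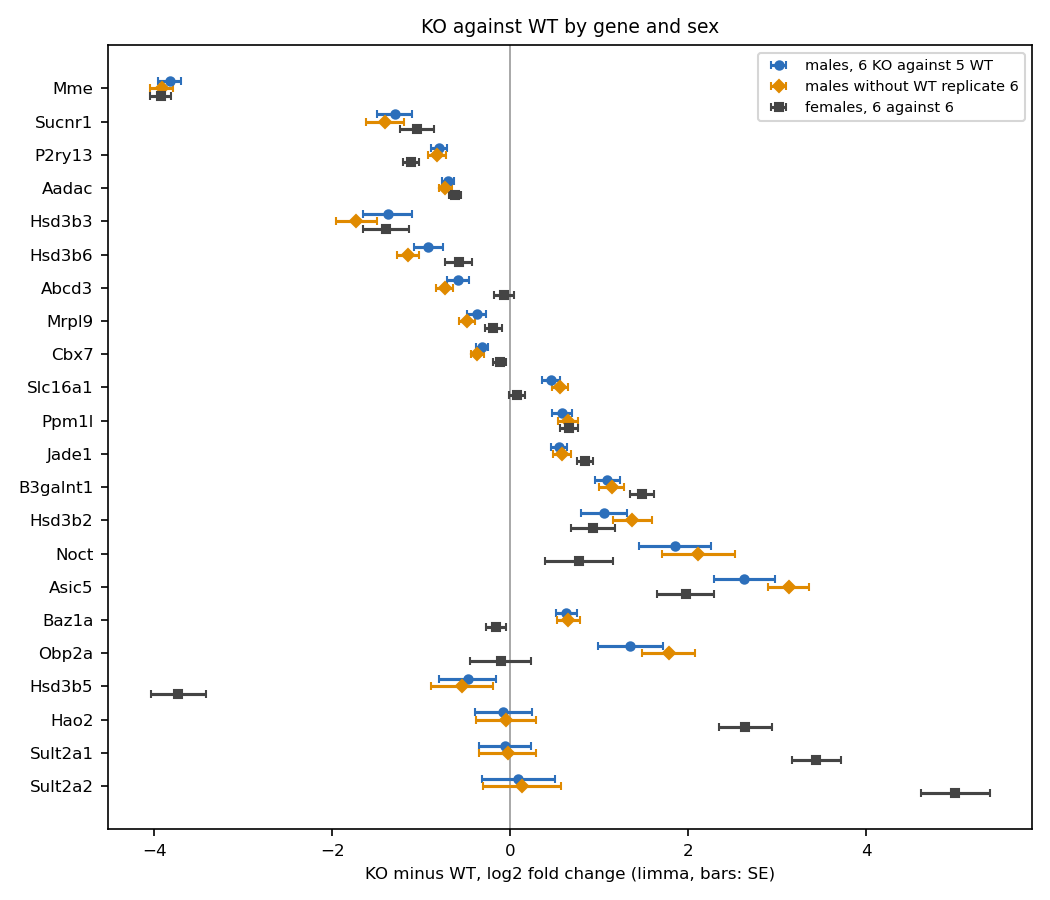
KO minus WT log2 fold change with its standard error (limma) for 22 genes, in males with all arrays (circles), in males without WT replicate 6 (diamonds) and in females (squares). Mme, Sucnr1, P2ry13, Aadac and Asic5 lie on the same side of 0 in both sexes, and Hsd3b5, Hao2, Sult2a1 and Sult2a2 lie near 0 in males only.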

How the data were processed

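Male and female livers gave biotin-labelled cRNA for 1 array each (labels' protocols). Each deposited value is a linear intensity of a probe set after RMA (submitters' processing notes), run by the authors at a version not given in the sources used here. Values were converted to log2 without further scaling. limma 3.58.1 in R 4.3.3 (lmFit, eBayes, 1 mean per group over all 23 arrays, so that 4 groups share the spread; 19 residual and 7.61 prior degrees of freedom) gave the contrasts, with Benjamini-Hochberg adjustment over 38385 probe sets. The fit was checked on simulated data.

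The samples, lists and rules were chosen with earlier results of these data known. Named genes are P2ry13, every called gene, the genes around P2ry13 and of the Hsd3b cluster, up to 4 smallest-p members of each other list, the 15 highest and 15 lowest genes with p under 0.05, no overlap and a mean of at least 6, the largest called sex differences, and the 20 chromosome 3 genes where WT replicate 6 departs most; not all are printed. A gene is read at its smallest-p probe set, in lists and in the chromosome plot at its brightest. Names come from the platform annotation, and chromosome and order from a RefSeq table of GRCm38.p6, where 24237 of 24478 named probe sets were found. Precision is limited by the number of arrays. P-values measure the spread between these animals; the labels state no batch. Replicate numbers do not pair the samples. Alternatives were quantile normalization, equal array medians, a filter on dim probe sets, array weights, a variance trend, a replicate block, a minimum change of 20%, male arrays only, a plain analysis of variance and each array left out. Where a gene passed without a named array other than WT replicate 6, that array was picked after the values were seen. Figures used matplotlib 3.10.9.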

Additional observations from a re-analysis of the deposited data

Results flagged for a closer look

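The KO and WT groups of 71 named genes were examined for 1 array apart from the rest by Dixon's criterion. Chance gives this at about 1 in 20 unselected groups, a rate that is no reference here, because the genes were chosen for their differences, some of them as the 20 chromosome 3 genes where WT replicate 6 departs most. The values are therefore a description. WT replicate 6 lay apart at 6 genes of chromosome 3. It read 7.85 at Asic5 (the others 5.30 to 5.36), 7.37 at Hsd3b6 (8.43 to 8.62), 10.11 at Hsd3b3 (11.63 to 12.06), 7.16 at Slc30a7 (7.46 to 7.57), 6.78 at Rpl34 (7.40 to 7.64) and 8.36 at Cisd2 (8.87 to 8.98). KO replicate 4 lay apart at Rpl34, with 7.81 against 6.59 to 6.94, and at Gbp2b, with 5.38 against 5.99 to 6.34.

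WT replicate 2 lay apart at Igfbp3 (6.97, the others 6.57 to 6.62), Fgl1 (9.97 against 10.31 to 10.36), Bcl3 (6.83 against 7.17 to 7.26), Gnai1 (4.68 against 4.95 to 5.02) and Hsd3b7 (12.83 against 13.02 to 13.06). None of these 5 genes was called in males with all arrays.

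The KO effect differed between males and females, by limma's test of the difference, at Sult2a2 (-4.92, adjusted p = 6.27e-05), Sult2a1 (-3.50, adjusted p = 6.27e-05), Hao2 (-2.72, adjusted p = 0.0131) and Hsd3b5 (3.25, adjusted p = 0.00116). The part of array handling or of the animals' state in these values was not tested.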

How the results depend on the processing

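The 12 male calls became 6 when a change beyond 20% was required, 3 in a plain analysis of variance, 582 by the design text's unadjusted p with a change over 20% and 28 with WT replicate 6 and KO replicate 4 both left out, the last chosen after the data were seen. Leaving out 1 male array at a time gave 9 to 21, the highest without WT replicate 6. The other alternatives gave 9 (male arrays only) to 17 (array weights). The replicate number as a block gave 13, and same-numbered samples did not deviate together (correlations -0.164 to 0.0438), so the numbers are not taken as pairs. Without WT replicate 6, the 21 calls became 12 when a change beyond 20% was required and 20 to 26 otherwise. The 4 sex differences became 5 at most.

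Of 1488 values of 71 genes under alternatives, 41 lost a call, 31 gained one and 3 changed sign: Sult2a1 ranged from -0.11 to 0.07 over the arrays left out, positive without WT replicate 4, and Hsd3b7 from -0.03 without WT replicate 2 to 0.03, with -0.01 under quantile normalization. The plain analysis of variance ended the calls of P2ry13 and B3galnt1 (adjusted p = 0.187 for both), Sucnr1 (0.394), Asic5 and Baz1a (0.598 for both) and Jade1, Hsd3b6 and Ppm1l (0.82 for each); the cause was not tested. The number of arrays limits the smallest change that can pass.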

Other observations

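Other probe sets that departed on chromosome 3 were spread over both groups. Ddah1, an enzyme that clears methylated arginines, read 8.04, 7.26, 7.88, 8.84, 5.66 and 6.69 in male KO and 7.96, 9.13, 9.42, 8.54 and 6.00 in male WT. Its lowest WT array was replicate 6 and its lowest KO array replicate 5, and the difference of -0.81 did not pass (limma, adjusted p = 0.828). Gbp2b, an interferon-inducible GTPase, read 5.38 in KO replicate 4 and 6.30 in WT replicate 6, each at an end of its own group's range, with a difference of 0.43 (limma, adjusted p = 0.819).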
